A study of Mus musculus with 6 samples.

Results

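The genes examined here encode the enzymes that make cholesterol, the proteins that regulate them and the enzymes that make fatty acids. The list was chosen by gene name, as known parts of these pathways, with earlier results of these data known, and it holds 31 genes. Of these, 30 had a probe set named to them alone among 18193 genes with such a probe set: 17 of the 18 sterol synthesis enzymes, all 6 regulators and sterol transfer genes and all 7 fatty acid synthesis genes. The thiolase gene Acat2 had no such probe set in the annotation used here. All 30 passed the filter on low intensities, so none was left out for being dim, and each gene is given by its brightest probe set.

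Total RNA was measured on 6 Affymetrix arrays of iKAP primary cultured cells. iKAP is the name of a mouse colorectal cancer model with engineered alleles, which the labels do not spell out. In 3 arrays the cells are labelled as stably expressing the IRF2 open reading frame from the lentiviral plasmid pLenti6.3, and in the 3 control arrays as expressing GFP from it. All 6 arrays thus share the engineered background, the plasmid, the one numbered culture and DMEM with a tetracycline-free supplement. The labels name neither the plasmid's promoter nor the species of the cloned IRF2 sequence, and they do not say if the inducing drug was added or if replicate arrays stand for different cultures. All p-values here therefore reflect array-to-array spread that could be technical. IRF2 belongs to the interferon regulatory factors, which bind DNA and switch genes on or off, and the comparison is, by its labels, of cells given IRF2 with cells given GFP.

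The gene named by the labels was read first. Irf2, by its only probe set, had 37.0, 36.6 and 35.2 intensity units on the arrays labelled IRF2, against 65.4, 60.5 and 62.0 on the GFP control arrays (log2 fold change -0.79, SE 0.06, limma adjusted p = 1.73e-07). This direction goes against the label, and which part of the transcript the probe set reads is not stated. Whether labels were exchanged was not tested and would turn every direction below, so the group is called "labelled IRF2" and each direction is that of the labels. Between the groups, 16.5% of the 12795 genes tested were higher and 19.8% lower at an adjusted p under 0.05. The median intensities of the arrays lay between 18.2 and 18.7, and log2 intensities correlated at 0.996 to 0.998 between arrays over all probe sets, as a description. Transferrin receptor, whose 3' over 5' signal is read as a sign of RNA quality, had a ratio of 3.81 to 4.47 on the arrays labelled IRF2 and 3.61 to 3.78 on the GFP control arrays, while that of beta-actin lay between 0.996 and 1.02 over all arrays. The 18S rRNA probe set read 2099 to 2254 on the arrays labelled IRF2 and 1798 to 2034 on the GFP control arrays. These values move with the groups, and their part in the results below was not tested. Of 8 epithelial markers 7 lay above the filter, while the villin gene Vil1 lay under it. All 8 summed to 15844 to 15978 on the arrays labelled IRF2 and 14255 to 14403 on the GFP control arrays. Most of that sum came from the keratin genes Krt8, Krt18 and Krt19, which read 3513 to 5493 over all arrays. Among the 8, Krt8 (log2 fold change 0.50) and Krt18 (0.08) rose, and the E-cadherin gene Cdh1 (-0.75) and Epcam (-0.81) fell. Of the adipocyte markers, a lipid-making cell type, 6 of 7 were measured. Their summed intensity was 136 to 143 on the arrays labelled IRF2 and 137 to 146 on the GFP control arrays. Adipoq, Lep and Cidec read between 4.18 and 6.20, and Fabp4 between 8.77 and 10.8. The 2 above the filter, Retn and Pparg, read 26.2 to 33.1 and 79.4 to 90.4 over all arrays. Fibroblast markers summed to 152 to 161 on the arrays labelled IRF2 and 147 to 155 on the GFP control arrays, with 5 of 8 above the filter, of which Pdgfra rose (log2 fold change 0.70) and Pdgfrb fell (-0.40). Immune markers summed to 281 to 294 on the arrays labelled IRF2 and 254 to 288 on the GFP control arrays (4 of 7 above the filter, of which Cd14 rose by 0.18), and endothelial markers to 45.1 to 50.1 on the arrays labelled IRF2 and 43.9 to 45.7 on the GFP control arrays (2 of 5). Col1a1, Ptprc and Pecam1, a dim gene of each of these lists, read under 10. Brighter members over all arrays were Pdgfra (24.5 to 50.7), Pdgfrb (40.6 to 62.9), Cd14 (112 to 145), Cd68 (71.0 to 84.7) and Kdr (15.8 to 17.8).

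Cholesterol is built from acetyl-CoA. A first set of enzymes leads through mevalonate to farnesyl diphosphate, a second joins farnesyl units into squalene and closes it into lanosterol, and the last ones trim lanosterol to cholesterol. When sterols are scarce, the escort protein SCAP carries the membrane-bound SREBP transcription factors from the endoplasmic reticulum to the Golgi, where they are cut and released to the nucleus. When sterols are plentiful, INSIG proteins hold SCAP back. SREBP-2 acts mainly on sterol genes and SREBP-1 mainly on fatty acid genes, many of which also bind NF-Y at a CCAAT box near their start.

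Promoters are shown for 4 genes that stand for the 3 sets of genes: Hmgcs1 and Ebp among sterol enzymes, Scap among regulators and Fasn among fatty acid genes. All but Scap carry letters that are marked here. Each is the 250 bases before a start listed for the gene in RefSeq's annotation of GRCm38.p6 (the first window where a gene has several), 5′ to 3′ on the gene's strand. The start listed for Fasn lies inside the gene's full span in that annotation, and those of the other genes lie at its edge. Capitals mark, on either strand, the sterol regulatory element TCACNCCAC, the CCAAT box (CCAAT, or ATTGG on the other strand) and the interferon regulatory factor element GAAANNGAAA.
Hmgcs1, chr13:119690101-119690350, plus strand: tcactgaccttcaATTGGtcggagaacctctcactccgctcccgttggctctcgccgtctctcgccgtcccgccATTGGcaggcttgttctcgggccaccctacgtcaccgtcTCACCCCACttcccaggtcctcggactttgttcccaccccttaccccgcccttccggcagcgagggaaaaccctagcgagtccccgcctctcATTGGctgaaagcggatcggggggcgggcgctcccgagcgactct
Ebp, chrX:8193513-8193762, minus strand: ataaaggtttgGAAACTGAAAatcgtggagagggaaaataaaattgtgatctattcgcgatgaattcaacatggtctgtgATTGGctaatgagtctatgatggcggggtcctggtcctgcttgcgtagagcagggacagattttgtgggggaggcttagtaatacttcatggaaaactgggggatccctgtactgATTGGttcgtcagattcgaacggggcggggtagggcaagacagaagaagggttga
Scap, chr9:110333038-110333287, plus strand: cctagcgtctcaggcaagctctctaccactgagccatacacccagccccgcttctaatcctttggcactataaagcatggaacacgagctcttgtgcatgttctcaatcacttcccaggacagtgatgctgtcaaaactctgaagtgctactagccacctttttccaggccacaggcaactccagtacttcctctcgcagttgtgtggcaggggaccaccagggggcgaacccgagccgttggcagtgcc
Fasn, chr11:120824548-120824797, minus strand: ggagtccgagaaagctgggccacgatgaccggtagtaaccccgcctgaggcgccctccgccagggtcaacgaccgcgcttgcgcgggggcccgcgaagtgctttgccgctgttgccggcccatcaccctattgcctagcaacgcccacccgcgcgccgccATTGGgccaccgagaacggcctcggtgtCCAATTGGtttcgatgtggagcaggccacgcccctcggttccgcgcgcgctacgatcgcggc
Hmgcs1 held the sterol regulatory element TCACCCCAC, its first base at position -137 from the start, and ATTGG at positions -237, -176 and -45. Ebp held GAAACTGAAA at position -239 from its start and ATTGG at positions -170 and -55. Scap held none of the 3 in this window. Fasn held ATTGG at position -90 and a CCAATTGG run from position -62, in which both strands match and the matches overlap.

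These letters were then counted in windows of 300 bases, from 250 before to 50 after each listed start, which were at hand for 25 of the 31 genes. Fdps, Fdft1 and Sqle, sterol enzymes that rose in the test below, had no window. The CCAAT box was in a window of 21 of the 25 genes, against 41.1% of 27025 genes with a window, and among them were 14 of 15 sterol enzymes, 4 of 5 regulators and 3 of 5 fatty acid genes. Acat2 was the sterol enzyme without it. The GC box GGGCGG was also in 21 of the 25, against 38.2% of all genes. The sterol regulatory element in this strict spelling was in 1 of the 25, Hmgcs1, against 1.44% of all genes, and the interferon regulatory factor element was in 1 of the 25, Ebp, against 3.99%. The shares of all genes are over every gene with a window, expressed or not, and were not matched to the brightness of the listed genes. A match describes the letters of the window, not binding.

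Sterol synthesis enzymes were more often higher than lower on the arrays labelled IRF2, by small amounts. Of the 17 measured, 10 rose, 0 fell and 7 did not pass the test, and 15 of the 17 fold changes lay above 0. The count of 0 holds for the listed enzymes only. Of 3 other sterol synthesis genes tested, the sterol reductase gene Lbr fell (-0.13) and 1, Cyb5r3, rose (0.28). Counted at an unadjusted limma p under 0.05, 0 of the 17 was lower. Their median log2 fold change was 0.11, beside -0.00070 over all genes tested, of which 49.8% lay above 0. Among the 6 regulators 4 fell and 1 rose, with a median of -0.09. The 7 fatty acid genes went both ways, with 2 higher, 1 lower and a median of -0.02. Over all 30 genes, 13 were higher, 5 lower and 12 not past the threshold, that is 43.3% higher against the background of 16.5% and 16.7% lower against 19.8% (36.3% of all genes passed in either direction).

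The genes are bright: their mean intensities ran from 89.3 to 4163 with a median of 580.1, against a median of 117 over all genes tested. Of the 7142 genes at least as bright as the dimmest of the 30, 21.1% were higher and 28.2% lower, a comparison chosen after the values were seen. The differences themselves were small. By the brightest probe set of each gene, the largest, in Hmgcs1, was 1.21-fold. It was the only one of the 30 to pass the test and reach 1.2-fold, as 6.51% of all genes did upward and 6.32% downward. Some dimmer probe sets gave larger log2 fold changes than its 0.27 and passed, among them those of Lss (0.39), Scd2 (0.37) and Hmgcs1 itself (0.34). The median size of the log2 fold changes was 0.11 in the 30 genes and 0.09 over all genes tested.

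**Figure D1:**
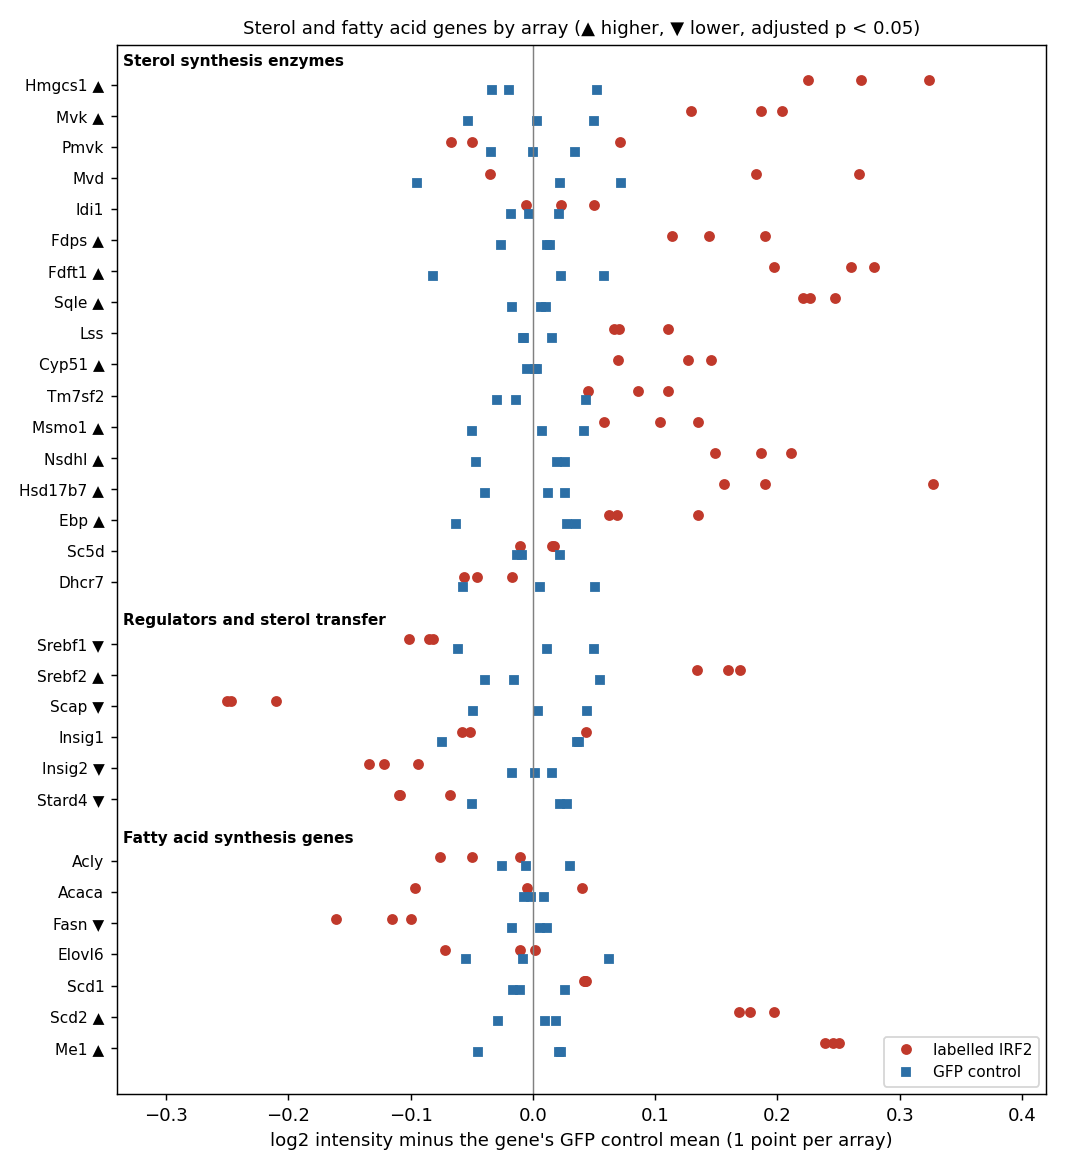
Each point is 1 array's log2 intensity minus the gene's GFP control mean, for the arrays labelled IRF2 (circles) and the GFP control arrays (squares). Hmgcs1, Fdft1, Sqle and Me1 sit to the right in all 3 arrays labelled IRF2 and Scap to the left, with log2 fold changes of 0.27, 0.25, 0.23, 0.24 and -0.24, whereas the circles and squares of Idi1, Sc5d and Insig1 overlap.

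In the mevalonate steps 3 of 6 measured enzymes rose. Hmgcs1, which makes HMG-CoA, read 1069, 1102 and 1145 on the arrays labelled IRF2, against 903, 949 and 894 on the GFP control arrays (log2 fold change 0.27, SE 0.03, limma adjusted p = 3.97e-06). All 3 arrays labelled IRF2 were higher, and its other 3 probe sets above the filter gave 0.25 to 0.34. Fdps, which makes farnesyl diphosphate, read 1601, 1635 and 1688 in the arrays labelled IRF2, against 1492, 1454 and 1495 in the GFP control arrays (0.15, SE 0.02, limma adjusted p = 1.54e-04). The kinase gene Mvk read 112, 118 and 117 in the arrays labelled IRF2, against 103, 99.0 and 106 in the GFP control arrays (0.17, SE 0.05, limma adjusted p = 0.0111), and neither gene's groups overlapped. The other probe set of Mvk, at 0.19 (SE 0.05), also passed.

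The decarboxylase gene Mvd read 96.6, 102 and 83.1 on the arrays labelled IRF2, against 86.5, 79.8 and 89.5 on the GFP control arrays (log2 fold change 0.14, SE 0.07, limma adjusted p = 0.160). The groups overlapped through the replicate 3 array labelled IRF2, without which the difference was 0.22 with a limma adjusted p of 0.0165. Leaving out any other array gave 0.07 to 0.17 and no call (limma adjusted p of 0.135 to 0.523). The other probe set of Mvd gave -0.01 (SE 0.06). Pmvk, the next kinase, and Idi1, the isomerase, gave -0.01 (SE 0.05) and 0.02 (SE 0.03), and their groups overlapped. Hmgcs1 and Fdps, the first and last measured steps, passed the test, as did 1 of the 4 measured between them, and differences between these enzymes were not tested.

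The squalene steps showed rises in 2 of 3 enzymes. Sqle, the squalene epoxidase and a rate-limiting enzyme, read 746, 733 and 736 on the arrays labelled IRF2, against 631, 621 and 633 on the GFP control arrays (log2 fold change 0.23, SE 0.02, limma adjusted p = 2.96e-06). Fdft1, the squalene synthase, read 742, 733 and 701 in the arrays labelled IRF2, against 622, 578 and 637 in the GFP control arrays (0.25, SE 0.03, limma adjusted p = 5.24e-05). In both genes every array labelled IRF2 was above every control array. The probe sets of Fdft1 disagreed: the second bright one gave 0.23 (SE 0.03), while 2 dim ones that read between 13.9 and 21.7 gave -0.29 (SE 0.11) and -0.16 (SE 0.09), neither past the threshold, and the mean over all 4 was 0.00 (limma adjusted p = 0.960). Lss, the lanosterol synthase, read 193, 188 and 188 in the arrays labelled IRF2, against 181, 178 and 178 in the GFP control arrays (0.08, SE 0.04, limma adjusted p = 0.102). Its groups did not overlap, and a dimmer probe set of Lss gave 0.39 (SE 0.09, limma adjusted p = 0.00431 over all probe sets). The dimmest probe set of Lss, with overlapping groups, gave 0.21 and did not pass (SE 0.10, limma adjusted p = 0.125 over all probe sets).

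After lanosterol, 5 of 8 enzymes rose. Nsdhl, a dehydrogenase that removes a methyl group, read 559, 568 and 545 on the arrays labelled IRF2, against 498, 500.2 and 476 on the GFP control arrays (log2 fold change 0.18, SE 0.03, limma adjusted p = 1.85e-04). Cyp51, the lanosterol demethylase, read 817, 807 and 775 in the arrays labelled IRF2, against 736, 739.7 and 740.3 in the GFP control arrays (0.11, SE 0.03, limma adjusted p = 0.00274), and its 2 other probe sets gave 0.18 (SE 0.05) and 0.19 (SE 0.09), the last not past the threshold. Msmo1, the methyl sterol oxidase that acts before Nsdhl, read 1280.5, 1321 and 1351 in the arrays labelled IRF2, against 1188, 1236 and 1266 in the GFP control arrays (0.10, SE 0.03, limma adjusted p = 0.0103). The call of Msmo1 was lost without the intensity trend in the test (limma adjusted p = 0.0988). None of these 3 had overlapping groups.

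Hsd17b7, a sterol ketone reductase, read 107, 117 and 104 on the arrays labelled IRF2, against 91.1, 94.4 and 95.3 on the GFP control arrays (log2 fold change 0.22, SE 0.05, limma adjusted p = 0.00431). This rests on its brightest probe set, since its 2 others above the filter gave 0.11 (SE 0.07) and 0.03 (SE 0.05), neither past the threshold. Ebp, the sterol isomerase whose promoter window held GAAACTGAAA, read 655, 688 and 657 in the arrays labelled IRF2, against 639, 599.9 and 642 in the GFP control arrays (0.09, SE 0.03, limma adjusted p = 0.0395). It had the highest adjusted p of the 13 rises, and the call was lost without the replicate 2 array labelled IRF2 (0.07, limma adjusted p = 0.187), without the replicate 3 array labelled IRF2 (0.10, 0.0506) and without the replicate 2 GFP control array (0.06, 0.168). It was also lost with no intensity filter (0.0570), under median centring (0.107) and without the intensity trend (0.152). The reductase gene Tm7sf2 gave 0.08 (SE 0.04, limma adjusted p = 0.140) with groups that did not overlap. The last enzymes of the branch, Sc5d and Dhcr7, gave 0.01 (SE 0.02) and -0.04 (SE 0.04), with overlapping groups.

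Of the 6 regulators and transfer genes, 1 rose, 4 fell and 1 did not pass the test. Scap, the SREBP escort, had the largest fall of the 30 genes and read 259, 252 and 252 on the arrays labelled IRF2, against 309, 289 and 300.1 on the GFP control arrays (log2 fold change -0.24, SE 0.03, limma adjusted p = 7.64e-05). Its groups did not overlap, and its only other probe set lay under the filter. That dim probe set turned the mean over both to 0.01 (limma adjusted p = 0.917). Srebf2, the gene of SREBP-2, read 203, 198 and 201 in the arrays labelled IRF2, against 175, 178 and 187 in the GFP control arrays (0.15, SE 0.04, limma adjusted p = 0.00577), and its other probe set gave 0.17 (SE 0.05). Srebf1, the gene of SREBP-1, read 624, 622 and 615 in the arrays labelled IRF2, against 683, 632 and 665 in the GFP control arrays (-0.09, SE 0.03, limma adjusted p = 0.0289). The call of Srebf1 disappeared in 5 of 6 fits with 1 array removed, all but that without the replicate 2 GFP control array, with limma adjusted p of 0.0558 to 0.127 and differences of -0.09 to -0.06.

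Within an array, the log2 ratio of Srebf2 to Srebf1, set to 0 at its GFP control mean, was 0.25, 0.22 and 0.26 on the arrays labelled IRF2, against -0.09, 0.05 and 0.04 on the GFP control arrays. The groups of this ratio did not overlap, which gives the smallest p that 3 arrays against 3 allow (two-sided exact permutation test, p = 0.1, adjusted over 3 such pairs 0.15). The design cannot reach 0.05 by that test.

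Insig2, one of the SCAP anchors, read 215, 219.7 and 214 on the arrays labelled IRF2, against 235, 237 and 232 on the GFP control arrays (log2 fold change -0.12, SE 0.03, limma adjusted p = 0.0149). Its 2 dimmer probe sets gave -0.09 (SE 0.06) and -0.01 (SE 0.04), neither past the threshold. Insig1, the anchor that SREBPs themselves induce, gave -0.02 (SE 0.04, limma adjusted p = 0.694) with overlapping groups. The ratio of Insig2 to Insig1 overlapped between the groups (difference -0.09, exact permutation p = 0.2). Stard4, which moves sterol between membranes, read 316, 307 and 307 in the arrays labelled IRF2, against 320.0, 336 and 338 in the GFP control arrays (-0.10, SE 0.03, limma adjusted p = 0.0356). That call did not hold across its probe sets, of which the other two gave 0.06 (SE 0.05) and -0.04 (SE 0.04). It was also lost without the replicate 2 or 3 array labelled IRF2 (-0.09 each, 0.110 and 0.0950) and without the replicate 2 or 3 GFP control array (-0.08 each, 0.0971 and 0.140). The count of 5 falls among the 30 genes came to 3 without the replicate 2 array labelled IRF2, without the replicate 3 array labelled IRF2 and without the replicate 3 GFP control array.

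**Figure D2:**
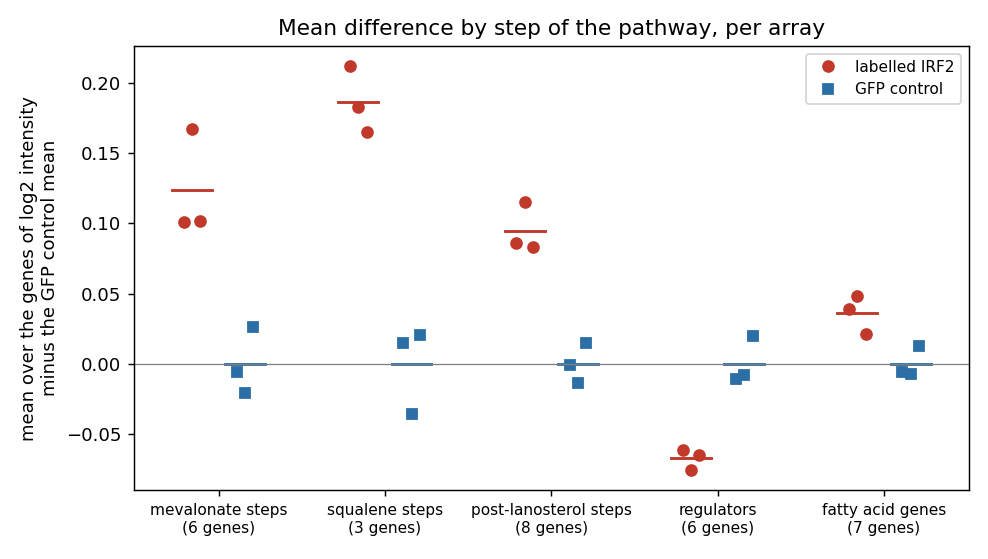
For each step of the pathway, a point is 1 array's mean over the genes of log2 intensity minus the GFP control mean, with arrays labelled IRF2 to the left and GFP control arrays to the right, and the line is the mean of 3 arrays. The squalene steps reach 0.16 to 0.21 on the arrays labelled IRF2, the regulators lie between -0.08 and -0.06 and the fatty acid genes between 0.02 and 0.05.

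Set side by side, the sterol enzymes averaged 0.11, 0.15 and 0.10 above their GFP control means on the arrays labelled IRF2, against 0.00, -0.02 and 0.02 on the GFP control arrays. The fatty acid genes averaged 0.04, 0.05 and 0.02 on the arrays labelled IRF2, against -0.01, -0.01 and 0.01 on the GFP control arrays. Their median log2 fold change was below 0 (-0.02). Only 3 of these 7 genes lay above 0: Me1 (0.24), Scd2 (0.18) and Scd1 (0.04). Within the sterol enzymes the squalene steps were the furthest above the control arrays, with 0.21, 0.18 and 0.16 on the arrays labelled IRF2. The regulators averaged -0.06, -0.08 and -0.06 on the arrays labelled IRF2, against -0.01, -0.01 and 0.02 on the GFP control arrays. These means describe the chosen genes and carry no test.

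Within the fatty acid arm, 1 gene fell, 2 rose and 4 did not pass the test. Fasn, the fatty acid synthase, read 598, 591 and 573 on the arrays labelled IRF2, against 643, 646 and 633 on the GFP control arrays (log2 fold change -0.13, SE 0.03, limma adjusted p = 0.00164), a fall seen in all 3 arrays and kept in every run that left out 1 array. Acaca, the acetyl-CoA carboxylase that feeds it, gave -0.02 (SE 0.04). Acly, which makes the acetyl-CoA that both arms use, read 1102, 1123 and 1154 in the arrays labelled IRF2, against 1142, 1187 and 1158 in the GFP control arrays (-0.05, SE 0.02, limma adjusted p = 0.180). Its 2 other probe sets above the filter gave 0.00 each, and the groups overlapped in all of them. The elongase gene Elovl6 gave -0.03 (SE 0.04), and -0.16 (SE 0.06, limma adjusted p = 0.0505 over all probe sets) in its other probe set.

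Me1, the malic enzyme that supplies NADPH for lipid synthesis, read 911, 903 and 907 on the arrays labelled IRF2, against 777, 742 and 778 on the GFP control arrays (log2 fold change 0.24, SE 0.03, limma adjusted p = 2.41e-06). Its other probe set gave the same 0.24. Scd2, a desaturase that makes monounsaturated fatty acids and the brightest of the 30 genes, read 4394, 4423 and 4483 in the arrays labelled IRF2, against 3834, 3961 and 3936 in the GFP control arrays (0.18, SE 0.02, limma adjusted p = 2.45e-06), and its dimmer probe sets gave 0.37 (SE 0.03) and 0.27 (SE 0.05). All probe sets of both genes passed. Scd1, its close relative, read 848, 847 and 848 in the arrays labelled IRF2, against 814, 817 and 838 in the GFP control arrays (0.04, SE 0.02, limma adjusted p = 0.186). The ratio of Scd2 to Scd1 was 0.13, 0.14 and 0.15 above its control mean on the arrays labelled IRF2, against -0.01, 0.03 and -0.02 on the GFP control arrays (difference 0.14, exact permutation p = 0.1, the smallest possible, adjusted 0.15). Desaturase relatives are alike in sequence, and how far their probes share transcripts was not tested.

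**Figure D3:**
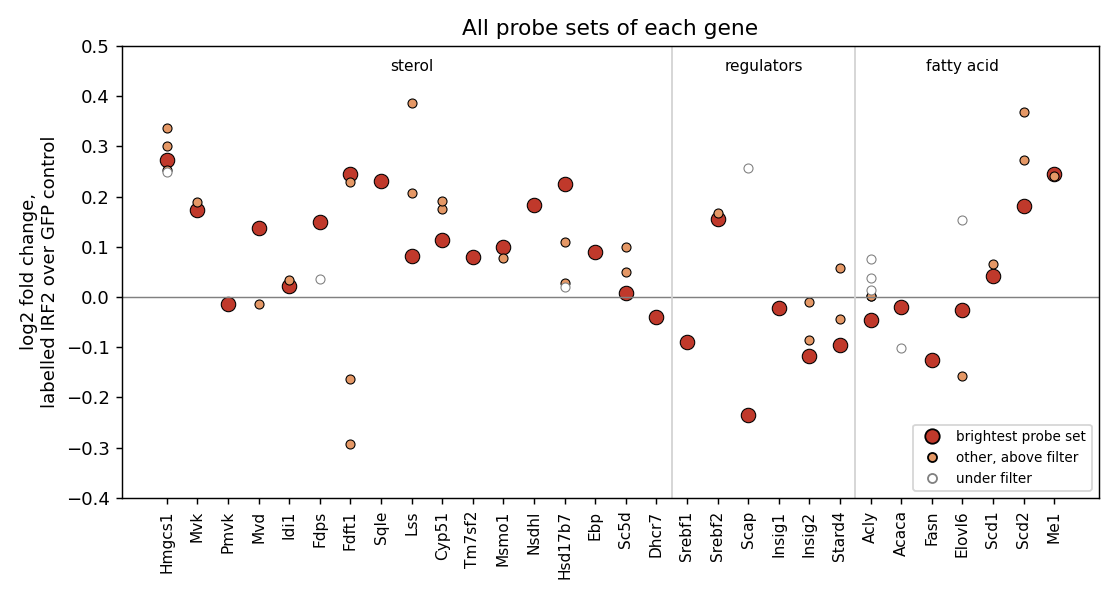
Each point is the log2 fold change of 1 probe set, labelled IRF2 over GFP control, for the 30 genes in pathway order: the large point is the brightest probe set, small filled points are others above the filter and open points lie under it. All filled points of Hmgcs1, Cyp51, Srebf2, Scd2 and Me1 lie on the same side of 0, whereas those of Fdft1, Mvd, Stard4 and Acly lie on both.

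The agreement of probe sets was counted over the whole list. The 30 genes had 69 probe sets, of which 60 lay above the filter, and tested on their own 23 of these were higher and 5 lower, against 14.0% higher and 17.2% lower among all 23041 probe sets so tested. Of the 18 genes with several probe sets above the filter, 4 had probe sets of both signs (Mvd, Fdft1, Stard4 and Acly). In 7 of the 18, some probe sets passed the threshold and others did not. With the mean of all probe sets, dim ones included, in place of the brightest, 6 sterol enzymes rose: Fdps (0.09, limma adjusted p = 0.157), Fdft1 (0.960), Msmo1 (0.187), Hsd17b7 (0.175) and Ebp (0.0553) lost their calls and Lss (0.23, 0.0124) gained one. The falls of Scap, Insig2 (0.180) and Stard4 (0.512) were lost in that setting too. The groups did not overlap in 21 of the 30 genes, against 46.2% of all genes tested.

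**Figure D4:**
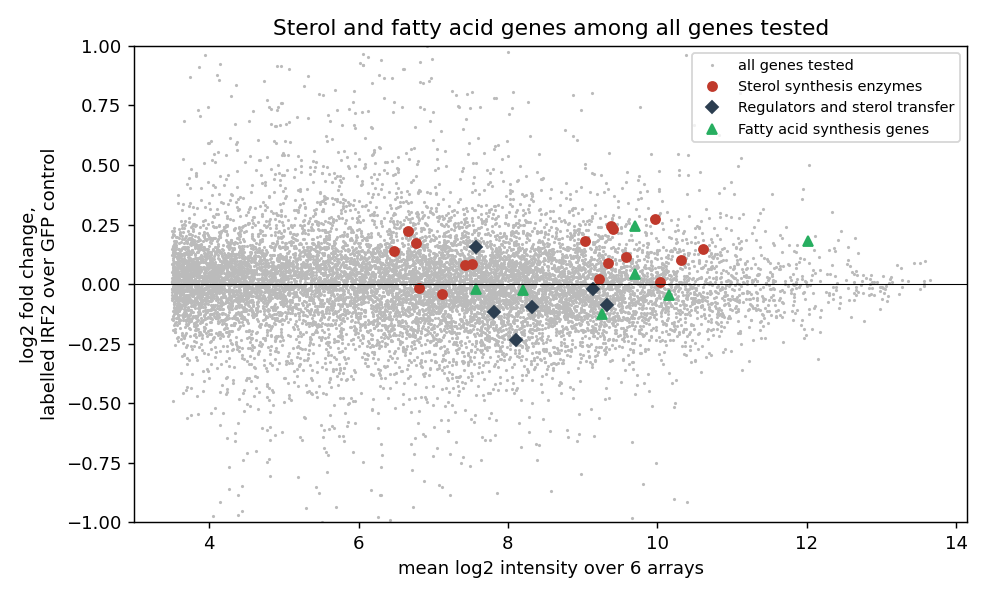
Log2 fold change, labelled IRF2 over GFP control, against mean log2 intensity for all 12795 genes tested (grey; 93 genes beyond 1 in size are not drawn) with the 30 genes in colour. The sterol enzymes lie mostly above 0 and the regulators mostly below, and the 30 fold changes run from -0.24 to 0.27.

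Neighbouring parts of lipid metabolism were read from 59 further genes, of which 44 were tested. Of these, 3 rose and 10 fell, or 6.82% and 22.7%, against 16.5% and 19.8% of all genes tested, with a median log2 fold change of 0.00. Among 3 other sterol synthesis genes, Cyb5r3, the cytochrome b5 reductase that passes electrons to sterol oxidases, read 2054, 2006 and 2029 on the arrays labelled IRF2, against 1670.4, 1665 and 1669.8 on the GFP control arrays (0.28, SE 0.02, limma adjusted p = 3.62e-08). Lbr, another sterol reductase that also anchors the nuclear lamina, fell by 0.13 (SE 0.03), and Ggps1 did not pass (0.09, SE 0.06). Of 10 genes of sterol uptake, efflux and storage, the lysosomal cholesterol carrier Npc2 rose by 0.16 (SE 0.03), while the lipoprotein receptor gene Lrp8 (-0.40, SE 0.04) and Tmem97 (-0.20, SE 0.04), a binding partner of the lysosomal transporter NPC1, fell. Of 6 genes of SREBP processing and sterol-regulated protein turnover, Mbtps2, a protease that releases SREBPs, fell by 0.12 (SE 0.03).

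Among 14 other genes of fatty acid synthesis, elongation and desaturation, 3 fell (21.4%, near the 19.8% of all genes) and 0 rose in the limma test. The elongase genes Elovl7 (-0.45, SE 0.08) and Elovl1 (-0.17, SE 0.03) and the dehydratase gene Hacd3 (-0.23, SE 0.03) fell, and the enoyl-CoA reductase gene Tecr, at 0.07 (SE 0.03, limma adjusted p = 0.0504), did not pass. At an unadjusted limma p under 0.05, 2 were higher. Of 11 glycerolipid genes, Pnpla2, the lipase that starts triglyceride breakdown, rose by 0.29 (SE 0.04), and the lipid droplet coat gene Plin2 (-0.17, SE 0.02), Pcyt2 (-0.25, SE 0.04), of phosphatidylethanolamine synthesis, and the acyltransferase gene Agpat2 (-0.15, SE 0.03) fell.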

How the data were processed

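RNA was read on 6 Affymetrix arrays, 3 a group by the labels. The deposited values are linear intensities per probe set, and the tool MAS5 is named per the submitters' processing notes, with its settings and scaling not given in the sources used here. Values were taken as log2 of the deposited intensity with no further normalization. Array controls left out, the platform annotation gave 1 gene symbol to 34945 of 45037 probe sets, several to 932 and none to 9160, and only those with 1 were used (34741 found in RefSeq's GRCm38.p6 gene table). The brightest probe set by mean log2 stood for each of 18193 genes, and 12795 above the 40th percentile of intensity (11.3) were tested with limma 3.58.1 (lmFit and eBayes with an intensity trend, 4 residual degrees of freedom) in R 4.3.3, with Benjamini-Hochberg adjustment over all of them at 0.05. The same fit was run over 23041 probe sets. The test was tested on simulated data.

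The 31 genes, the pathway and marker lists, and the tests were chosen with earlier results of these data known. All 31 are named, with the value of each array for those past the threshold or with probe sets of both signs, and up to 4 of each other list by smallest adjusted p. Some cell type markers under the filter are named as well. Means per step are of log2 values minus the GFP control mean. Motifs were searched on both strands of RefSeq promoter windows. For same-numbered arrays the deviations from group means correlated at 0.07, -0.08 and -0.00077 over genes, so numbers were not taken as pairs. Alternatives were the pseudocount 16, the filter (none, or the 60th percentile), quantile normalization, median centring, probe set means, no trend, a robust fit, the replicate number as a block and each array left out. Having 3 arrays a group, and so 4 residual degrees of freedom, limits the precision.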

Additional observations from a re-analysis of the deposited data

How the results depend on the processing

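Over 510 repeats for the 30 genes, 452 kept direction and side of the threshold, 39 lost the call, 4 gained it and 15 turned direction. The counts of 13 and 10 rises came to 12 to 13 and 9 to 10 with each array left out, to 11 and 8 without the intensity trend and to 9 and 6 with the mean of all probe sets, and adding 16, a stricter filter, a robust fit and the replicate block changed no call of the 30. With the replicate block 2141 genes were higher and 2537 lower over all genes, and 13 and 5 of the 30. The count of 5 falls came to 2 with the mean of all probe sets, 3 with the mean of those above the filter (chosen after seeing the data), 3 under quantile normalization, 3 without the trend and 3 to 4 with each array left out. The sterol median came to 0.089 with either mean. The fatty acid median was 0.014 with the mean of all probe sets and -0.041 to 0.018 with each array left out, above 0 without the replicate 3 array of either group. The mean of all probe sets turned Scap to 0.011 and Acly to 0.014, and either mean took Fdft1 to 0.0043, past no threshold. Other reversals were of genes or probe sets not past the threshold: Pmvk, Acaca and Elovl6 with each array left out (-0.058 to 0.011, -0.051 to 0.018 and -0.054 to 0.0043), Sc5d under median centring (-0.0024), Insig1 under quantile normalization (0.00062), and other probe sets of Mvd (-0.014), Fdft1 (-0.29 and -0.16), Stard4 (0.057) and Acly (0.0013 and 0.0027). The cause was not tested. Low signal limits the dim probe sets, of which 9 of 69 lay under the filter.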
